A study of Mus musculus with 27 samples.

Results

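Matrix proteases of the metalloprotease families, and the tissue inhibitors that hold them in check, were followed through primary stimulation and re-stimulation of mouse bone marrow-derived macrophages (BMDM) with 4 toll-like receptor (TLR) ligands. The set holds 8 genes, Mmp8, Mmp9, Mmp12, Mmp13, Mmp14, Adamts4, Timp1 and Timp2, of 32138 genes named on the array, and they are read by 11 of its 55681 probes. Membership was by gene name. Adamts4 was chosen by its fall between acute and re-stimulated LPS samples, and the other 7 genes were chosen as its relatives with earlier results of these arrays known. All values of the 8 genes in that LPS comparison, and all LPS comparisons of Adamts4, are therefore descriptions without a test.

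Matrix metalloproteases are zinc enzymes that are made as inactive precursors and, once activated, cut collagens, elastin and other proteins of the extracellular matrix, as well as cytokines and chemokines. ADAMTS proteases are secreted relatives that cut proteoglycans such as aggrecan and versican. The TIMP proteins bind the active enzymes and block them, and TIMP2 also takes part in the activation of pro-MMP2 by MMP14 at the cell surface. Macrophages are a major source of these enzymes in inflamed tissue, where they clear matrix and let leukocytes migrate.

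BMDM were grown from bone marrow of female C57BL/6 mice aged 6 to 8 weeks in L929-conditioned medium for 7 days, and all groups share this genotype and culture. Naïve cells received no ligand, acute cells received 1 ligand for 4 h, and re-stimulated cells received a ligand for 24 h, were washed, rested for 1 h and received the same ligand again for 4 h. The ligands were LPS (TLR4) and Pam3CSK4 (TLR2), each at 100 ng/ml, Poly(I:C) (TLR3) at 10 µg/ml and CpG DNA (TLR9), for which the labels give 100 µM and the methods 1 µM. Each group had 3 cultures, each on its own single-colour array, and 25 of the 27 arrays had deposited log2 values: re-stimulated LPS and acute Pam3CSK4 have 2 arrays each. The methods describe a replicate in 1 place as a different mouse and in another as a pool of 3 mice, so p-values measure the spread between these cultures. No group received the ligand for 24 h without the second stimulation, so prolonged exposure and re-stimulation cannot be told apart here.

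Some arrays stood apart from the rest. The 3 acute LPS arrays lay on 3 slides of their own, were scanned on other days and were read with an earlier design file that names 6517 probes otherwise, so slide and stimulus cannot be told apart for acute LPS. All other arrays lay on 3 slides, and the slide there equals the replicate number. Arrays of replicate 3 differed most from the rest: the SD over probes of the difference between arrays of a group was 0.308 to 0.472 (log2) for the 8 pairs of replicates 1 and 2, and 0.49 to 0.797 for the 15 pairs with replicate 3. On naïve replicate 3, 74.6% of probes were well above background, against 42.1% to 54.3% on the other 24 arrays with deposited values. Results are given with replicate 3 first, and the calls without it after the accounts of the single genes.

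All levels are log2 intensities, and a difference of 1 is a 2-fold difference. Intensities of different probes are not comparable with each other, so each gene is compared with itself across groups. Of the 8 genes, 7 were well above background on all 25 arrays, and Adamts4 on 21. A gene was called when limma gave an adjusted p under 0.05 over all probes tested and the group means differed by at least 1.5-fold. Where cells are measured in bulk, fewer cells of a type and less RNA per cell cannot be told apart.

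**Figure D1:**
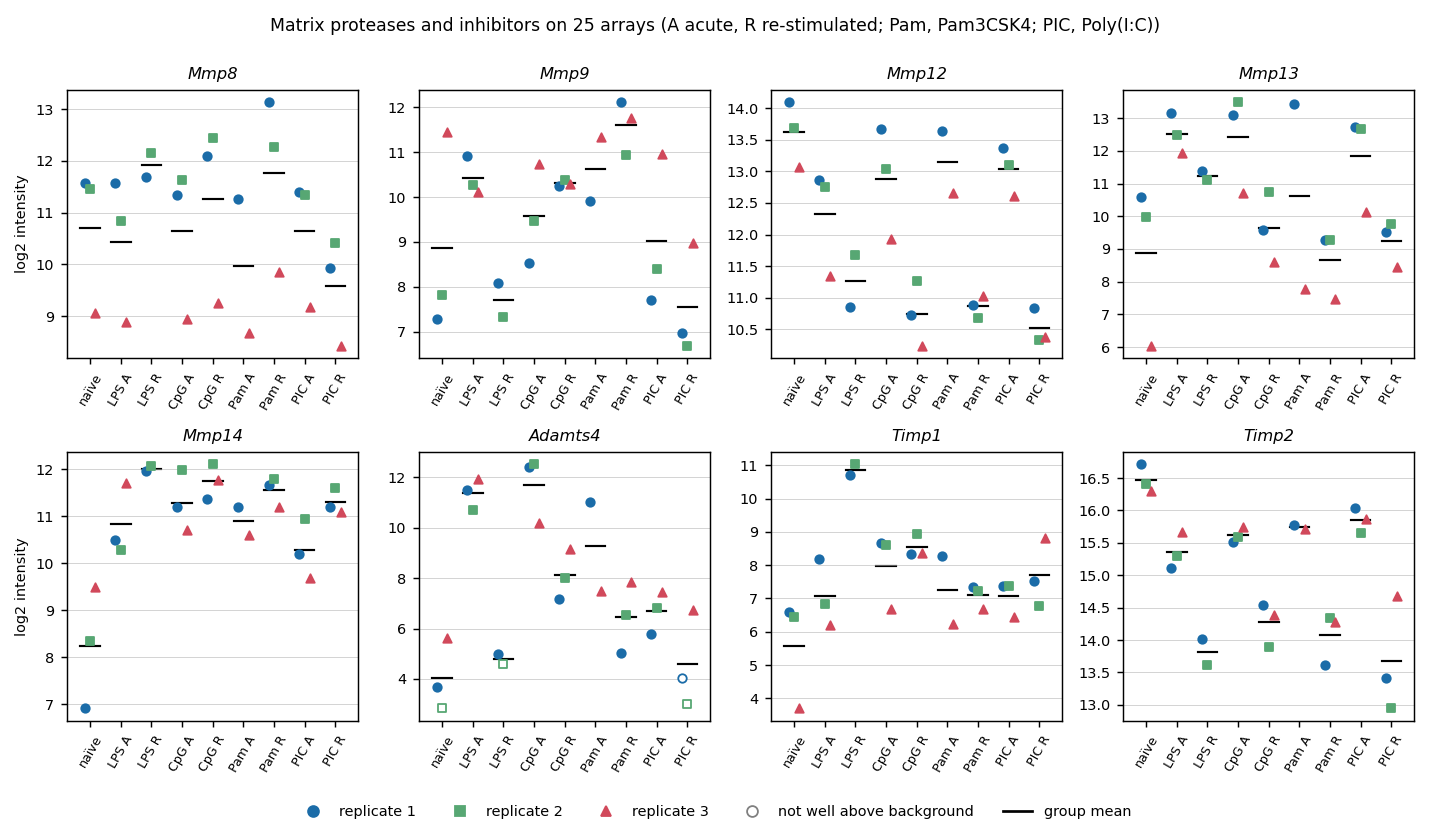
Log2 intensity (vertical axis) of the 8 genes on the 25 arrays, by group (horizontal axis), with 1 point per array, replicates by colour and shape, hollow points for probes not well above background and bars for group means. Timp2 steps down from naïve to acute to re-stimulated cells without overlap, Mmp14 is lowest in naïve cells, and replicate 3 is the lowest point of Mmp8 and of Mmp13 in each of the 8 groups that have it.

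Against naïve cells, acute stimulation changed few of the 8 genes by the test. Acute LPS changed 2 of the 7 genes tested, Mmp14 and Timp2, where 26.5% of all tested probes were called. Acute CpG changed 1 of 8, Adamts4, against 5.72% of all probes. Acute Poly(I:C) changed 0 of 8 (6.03% of all probes) and acute Pam3CSK4, with 2 arrays, 0 of 8 (0% of all probes), by limma. Before adjustment, p was under 0.05 for 3 of the 8 genes with Poly(I:C), where 22.3% of all probes were, and for 3 with Pam3CSK4, where 12.4% were. The median change of the 8 genes was 1.57 with CpG, 1.71 with Pam3CSK4 and 0.83 with Poly(I:C), where that of all tested probes was between -0.10 and 0.01.

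Between acute and re-stimulated cells the calls were falls. CpG changed 1 of 8 genes, Timp2, against 3.56% of all probes. Poly(I:C) changed 2 of 8, Mmp12 and Timp2, against 4.93%. Pam3CSK4 changed 0 of 8, and 0% of all probes, by limma, while unadjusted p was under 0.05 for 2 of the 8 genes and 13.6% of all probes. For LPS, where 34.2% of all probes were called, the genes are described without a test. The median change of the 8 genes was -0.44 with CpG, -0.91 with Pam3CSK4 and -1.78 with Poly(I:C), where that of all tested probes was at most 0.06.

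Re-stimulated cells differed from naïve cells in more of the genes. With LPS 3 of 7 genes were called, Mmp12, Timp1 and Timp2, against 5.66% of all probes. CpG changed 4 of 8, Mmp12, Mmp14, Adamts4 and Timp2 (13.1% of all probes). Pam3CSK4 changed 3 of 8, Mmp12, Mmp14 and Timp2 (5.36%), and Poly(I:C) changed the same 3 genes (9.03%). The replicate number was also used as a block, taken from the data to pair these cultures. The slide has the same number, so such a block cannot tell slide from culture. Pam3CSK4 then changed 0 of 8, with 6 probes called over the whole array in place of 1497. Poly(I:C) then changed 1 of 8, Mmp12, with 1701 probes called in place of 2565. Median changes of the 8 genes were 1.11 with CpG, 1.29 with Pam3CSK4 and -0.37 with Poly(I:C), against -0.04 to 0.03 for all tested probes. All 8 comparisons with naïve cells share the same 3 naïve arrays.

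**Figure D2:**
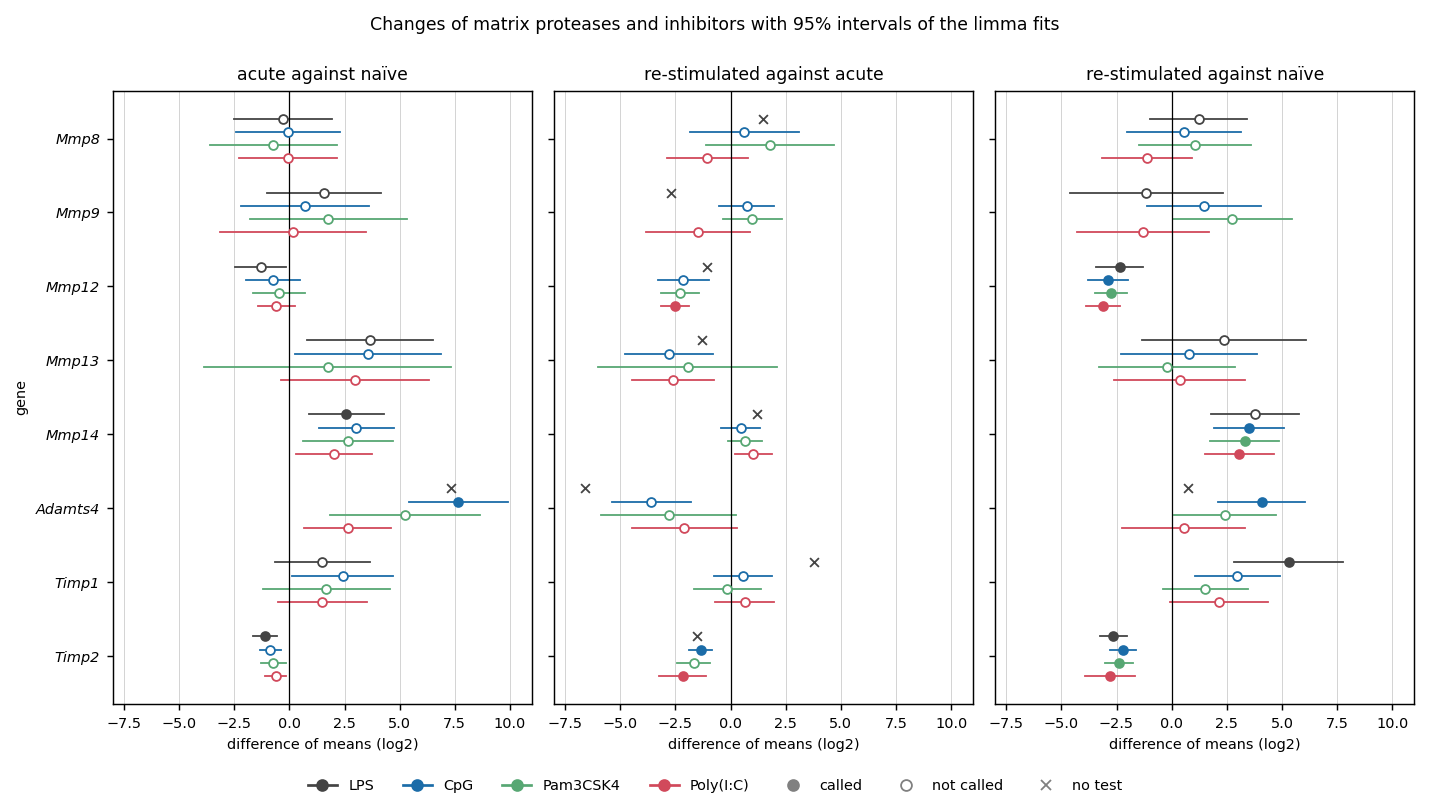
Difference of group means (log2, horizontal axis) for each gene (vertical axis) and ligand (colour) in the 3 kinds of comparison, with lines for 95% intervals of the limma fits, filled points for calls and crosses for values without a test. Falls of Mmp12 and Timp2 and rises of Mmp14 fill the panel of re-stimulated against naïve cells, and the rise of Adamts4 with acute CpG, 7.67, is the widest called difference of the 8 genes.

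The promoters of 6 of the 8 genes were in the RefSeq table (GRCm38.p6), in 7 entries, while Mmp9 and Adamts4 were not matched. They were searched on both strands over the 250 bases before the start for AP-1 (TGANTCA, in 6.75% of all 32851 promoters), the TATA box (TATAAA, 12.4%), an NF-kB motif (GGG, any 3 bases, then TTCC, 4.65%), an interferon-stimulated response element (GAAA, any 2 bases, then GAAA, 2.98%) and the GC box (GGGCGG, 32.7%). The patterns found did not overlap each other. Sequences are shown for Mmp12, Mmp14 and Timp2, each called against naïve cells on re-stimulation with at least 3 ligands, and for Mmp13, the entry with the most kinds of match, with matches in capitals. Mmp13 (chr9:7272264-7272513, plus strand) holds the interferon-type element on the minus strand 146 bases before the start, AP-1 at 35 and a TATA box at 16. Mmp12 has 2 RefSeq starts, of which the first holds none of the patterns and the second an AP-1 match 44 bases before it, shown with its flanks (chr9:7347319-7347347, plus strand). Mmp14 (chr14:54431348-54431597, plus strand) holds 2 adjoining GC boxes at 19 and 13 bases, and Timp2 (chr11:118355412-118355661, minus strand) holds 1 at 37. Timp1 holds a GC box on the minus strand at 8 bases, and Mmp8 none of the patterns. These are matches of letters and say nothing of binding.
Mmp13: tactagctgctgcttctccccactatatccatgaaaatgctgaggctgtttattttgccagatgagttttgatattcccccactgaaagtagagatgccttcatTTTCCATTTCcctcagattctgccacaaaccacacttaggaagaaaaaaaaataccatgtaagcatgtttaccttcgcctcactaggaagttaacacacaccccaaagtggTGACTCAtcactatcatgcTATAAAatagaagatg
Mmp12: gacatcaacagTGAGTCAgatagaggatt
Mmp14: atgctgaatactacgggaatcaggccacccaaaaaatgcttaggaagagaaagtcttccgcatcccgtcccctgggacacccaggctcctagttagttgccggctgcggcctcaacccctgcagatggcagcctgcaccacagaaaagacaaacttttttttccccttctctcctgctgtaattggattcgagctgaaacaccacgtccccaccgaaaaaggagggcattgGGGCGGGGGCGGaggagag
Timp2: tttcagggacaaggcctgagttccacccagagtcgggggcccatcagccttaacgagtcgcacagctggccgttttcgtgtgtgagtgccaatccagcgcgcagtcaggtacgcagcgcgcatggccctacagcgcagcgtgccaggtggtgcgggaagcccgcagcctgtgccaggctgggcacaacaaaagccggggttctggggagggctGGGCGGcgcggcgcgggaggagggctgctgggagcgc

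Adamts4 encodes an aggrecanase that cuts aggrecan and versican. Its main probe lies at chr1:173190709-173190768 (mm9, plus strand). In naïve cells it read 3.68, 2.83 and 5.61, the second of these not well above background. In acute LPS cells it read 11.50, 10.68 and 11.92, and in re-stimulated LPS cells 4.97 and 4.59, the latter not well above background. The acute LPS arrays thus all lay above both other groups, which overlapped each other. The difference of means was 7.33 from naïve to acute LPS and -6.59 from acute to re-stimulated LPS. These are the values that chose the gene.

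With CpG, Adamts4 read 12.41, 12.52 and 10.19 in acute cells and 7.19, 8.00 and 9.15 in re-stimulated cells. Both groups lay above all 3 naïve arrays, and the re-stimulated arrays all lay below the acute ones. Acute CpG raised Adamts4 by 7.67 ± 0.92 (SE; 95% interval 5.42 to 9.91; limma adjusted p = 0.0154), and it was still 4.07 ± 0.82 above naïve cells on re-stimulation (adjusted p = 0.0295). With the replicate number as a block, taken to pair the CpG cultures, the acute limma adjusted p was 0.0617. That of re-stimulated against naïve cells was 0.0235. The fall of 3.59 from acute to re-stimulated CpG cells did not pass the test (adjusted p = 0.0534). Left out in turn, naïve replicates 1 and 2 and acute CpG replicates 1 and 2 each ended the acute call (adjusted p from 0.0686 to 0.0813), and every array but naïve replicate 3 ended the call against naïve cells (0.0706 to 0.0981). The acute rise was 7.06 without naïve replicate 2, the array not well above background, 8.45 without naïve replicate 3 and 8.42 without acute CpG replicate 3, and the rise on re-stimulation was 3.47 and 4.86 without naïve replicates 2 and 3. With normexp correction the rises were smaller, 5.26 for acute (adjusted p = 0.00475) and 1.96 for re-stimulated CpG cells (0.014), and with the 75th percentile they were 6.91 and 3.24.

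Acute Pam3CSK4 cells read 11.04 and 7.50 for Adamts4 and re-stimulated cells 5.03, 6.54 and 7.85. Replicate 1 fell between the 2 states, by 6.00 on its slide, while replicate 3 did not, with a difference of 0.35. Neither the acute difference of 5.23 (adjusted p = 0.291) nor that of 2.43 after re-stimulation (adjusted p = 0.18) passed the test. Poly(I:C) gave the lowest acute values, 5.77, 6.81 and 7.45, of which the first lay just above the highest naïve array, with a difference of 2.64 (adjusted p = 0.121). Re-stimulated Poly(I:C) cells read 4.03, 2.99 and 6.74, within the naïve range but for the last, and the first 2 were not well above background. The second Adamts4 probe moved the same way in the comparisons tested and was also called with acute Poly(I:C) (at least 8.3-fold higher, adjusted p = 0.0116), its naïve arrays being not well above background.

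Ordered by group mean, Adamts4 fell from acute CpG (11.71 ± 1.31, SD, n = 3) and acute LPS (11.37 ± 0.63, n = 3) through acute Pam3CSK4 (9.27 ± 2.50, n = 2), re-stimulated CpG (8.11 ± 0.99, n = 3), acute Poly(I:C) (6.68 ± 0.85, n = 3) and re-stimulated Pam3CSK4 (6.47 ± 1.41, n = 3). Re-stimulated LPS, re-stimulated Poly(I:C) and naïve cells had means of 4.78, 4.59 and 4.04, but their probe was well above background on only 1 of 2, 1 of 3 and 2 of 3 arrays, so their order among themselves was not measured. Among the groups above these, the arrays of neighbours in the order overlapped. Re-stimulated Pam3CSK4 arrays, from 5.03 up, lay just above those of re-stimulated LPS, at most 4.97. They overlapped those of re-stimulated Poly(I:C) and naïve cells.

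Mmp12 encodes macrophage elastase, and its group mean was highest in naïve BMDM. Its main probe lies at chr9:7352935-7352994 (mm9, plus strand). Naïve cells read 14.10, 13.68 and 13.07. Re-stimulated cells read 10.86 and 11.67 with LPS, 10.73, 11.26 and 10.23 with CpG, 10.89, 10.68 and 11.03 with Pam3CSK4, and 10.84, 10.33 and 10.38 with Poly(I:C). All 11 re-stimulated arrays thus lay more than 1 log2 unit below the lowest naïve array. The fall was 2.35 ± 0.42 (SE) with LPS (limma adjusted p = 0.0472), 2.87 ± 0.37 with CpG (0.011), 2.75 ± 0.30 with Pam3CSK4 (0.0155) and 3.10 ± 0.31 with Poly(I:C) (0.00841). In folds, Mmp12 was 5.10-fold lower with LPS and 8.55-fold lower with Poly(I:C). The second Mmp12 probe was called lower in the same 4 comparisons.

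Acute stimulation left Mmp12 nearer to its naïve level. Acute arrays read 12.86, 12.76 and 11.34 with LPS, 13.68, 13.04 and 11.93 with CpG, 13.64 and 12.65 with Pam3CSK4, and 13.37, 13.11 and 12.62 with Poly(I:C). All but those of LPS overlapped the naïve arrays, and no acute change of Mmp12 passed the test. From acute to re-stimulated cells it fell by 2.51 ± 0.26 with Poly(I:C) (adjusted p = 0.0194), and by 2.14 ± 0.48 with CpG (adjusted p = 0.0624, and 0.0426 with the replicate block) and 2.28 ± 0.35 with Pam3CSK4 (adjusted p = 0.158). With LPS the difference was -1.05 and the groups overlapped. Against acute cells the second Mmp12 probe was called lower with CpG (-3.19, limma adjusted p = 0.0177) and Poly(I:C) (-3.97, 0.0168). With Pam3CSK4 it was not called (-3.36, 0.142).

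The Poly(I:C) call of Mmp12 against naïve cells held with any 1 array left out, and that of CpG was lost only without re-stimulated CpG replicate 1 (adjusted p = 0.0511). The LPS call was lost without naïve replicate 1 or 2 or either re-stimulated array (0.12 to 0.278). The Pam3CSK4 call was lost without replicate 1 or 2 of either group (0.0626 to 0.0802) and with the replicate block (0.0564). The call between acute and re-stimulated Poly(I:C) cells was lost without replicate 1 or 2 of either group (0.0738 to 0.084). When arrays were scaled to their medians in place of quantiles, Mmp12 was still lower on re-stimulation, but against naïve cells only the Poly(I:C) call held (-2.12, adjusted p = 0.0227), and LPS gave -1.58 (0.419), CpG -1.66 (0.0718) and Pam3CSK4 -1.99 (0.0542).

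Mmp14 encodes a membrane-bound collagenase, MT1-MMP, that also activates pro-MMP2. Its probe lies at chr14:55058775-55058834 (mm9, plus strand). Naïve cells read 6.91, 8.34 and 9.50, the widest of the 9 groups for this gene. Every one of the 22 stimulated arrays lay above them, from 9.68 on acute Poly(I:C) replicate 3 to 12.11 on re-stimulated CpG replicate 2. Acute LPS arrays read 10.51, 10.28 and 11.72, and re-stimulated LPS arrays 11.96 and 12.07. Mmp14 rose by 2.58 ± 0.71 (SE; 6.00-fold) with acute LPS (limma adjusted p = 0.0403), while acute CpG gave 3.04 (adjusted p = 0.0629), Pam3CSK4 2.66 (0.322) and Poly(I:C) 2.03 (0.162).

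On re-stimulation all Mmp14 arrays lay above 11, higher than every naïve array. Re-stimulated arrays read 11.38, 12.11 and 11.77 with CpG, 11.68, 11.80 and 11.20 with Pam3CSK4, and 11.20, 11.60 and 11.10 with Poly(I:C). Against naïve cells the rise was 3.51 ± 0.64 with CpG (11.4-fold, adjusted p = 0.0239), 3.31 ± 0.64 with Pam3CSK4 (0.0447) and 3.05 ± 0.64 with Poly(I:C) (0.0408), and the LPS difference was 3.77 ± 0.77 (adjusted p = 0.0609). From acute to re-stimulated cells the differences were 0.46 with CpG, 0.66 with Pam3CSK4 and 1.03 with Poly(I:C), none of which passed the test, and 1.18 with LPS. With the replicate block the calls against naïve cells were lost for Pam3CSK4 (0.0811) and Poly(I:C) (0.0694). The acute LPS call and those of re-stimulated Pam3CSK4 and Poly(I:C) were each lost without any array but naïve replicate 3 (0.0617 to 0.156), and that of CpG without naïve replicate 2 or any re-stimulated array (0.0719 to 0.0908). Without naïve replicate 1 and without naïve replicate 3 the rise was 1.92 and 3.21 with acute LPS, and 2.84 and 4.13, 2.64 and 3.94, and 2.38 and 3.68 on re-stimulation with CpG, Pam3CSK4 and Poly(I:C).

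Timp2 encodes an inhibitor of metalloproteases. Its main probe lies at chr11:118163146-118163205 (mm9, minus strand). Naïve cells read 16.71, 16.40 and 16.31. The 11 acute arrays ran from 15.11 on LPS replicate 1 to 16.03 on Poly(I:C) replicate 1, and the 11 re-stimulated arrays from 12.94 on Poly(I:C) replicate 2 to 14.68 on Poly(I:C) replicate 3. The 3 states thus did not overlap on any of the 25 arrays. Acute LPS lowered Timp2 by 1.11 ± 0.23 (SE; 2.17-fold; limma adjusted p = 0.0159). The acute difference was -0.86 with CpG (adjusted p = 0.0593), -0.73 with Pam3CSK4 (0.332) and -0.63 with Poly(I:C) (0.132). When arrays were scaled to their medians these were 0.01, -0.46 and -0.01.

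In re-stimulated cells Timp2 was lower again than in acute cells. Against naïve cells it fell by 2.66 ± 0.24 with LPS (adjusted p = 0.0157), 2.20 ± 0.23 with CpG (0.00707), 2.40 ± 0.26 with Pam3CSK4 (0.0158) and 2.79 ± 0.46 with Poly(I:C) (0.0227), which is between 4.60-fold and 6.93-fold. Against acute cells it fell by 1.35 ± 0.22 with CpG (0.0374) and 2.17 ± 0.45 with Poly(I:C) (0.0495), and the Pam3CSK4 difference was -1.67 (0.171). The replicate block ended the calls against naïve cells for Pam3CSK4 (0.0594) and Poly(I:C) (0.0547). The second Timp2 probe, which spans 6778 bases of the genome, moved the same way but was called only for CpG and Pam3CSK4 against naïve cells. With 1 array left out, the CpG call against naïve cells held each time. When arrays were scaled to their medians, Timp2 was still lower in these comparisons, but none of its 7 calls held: the difference was -0.58 with acute LPS (adjusted p = 0.717), -0.93 and -1.85 between acute and re-stimulated CpG and Poly(I:C) cells (0.158 and 0.0533), and -0.92 to -1.91 in the 4 re-stimulated groups against naïve cells (0.0631 to 0.304).

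The other Timp2 calls against naïve cells were lost without replicate 1 or 2 of either group (0.0594 to 0.264). That of acute LPS was lost without naïve replicate 1 or acute replicate 1 or 2 (0.0516 to 0.0652). Against acute cells the CpG call of Timp2 was lost without any array but acute replicate 3 (0.0717 to 0.108) and the Poly(I:C) call without any but re-stimulated replicate 3 (0.0676 to 0.155).

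Timp1 encodes a secreted inhibitor with a wide range of target proteases. Its probe lies at chrX:20451802-20451861 (mm9, plus strand). Naïve cells read 6.58, 6.43 and 3.70, and re-stimulated LPS cells 10.71 and 11.03. No other group reached this level: the next highest arrays were 8.94 on re-stimulated CpG replicate 2 and 8.81 on re-stimulated Poly(I:C) replicate 3. Timp1 rose by 5.30 ± 0.96 (SE; 39.4-fold; 95% interval 2.83 to 7.78) from naïve to re-stimulated LPS cells (limma adjusted p = 0.0491). Acute LPS arrays read 8.17, 6.83 and 6.19, so that Timp1 stood 3.81 higher in re-stimulated than in acute LPS cells.

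With CpG, Timp1 read 8.67, 8.60 and 6.68 in acute and 8.35, 8.94 and 8.35 in re-stimulated cells. The acute difference of 2.42 did not pass the test (adjusted p = 0.195) but did with the replicate block (0.0477), and that of 2.98 after re-stimulation did not (0.0577). Pam3CSK4 and Poly(I:C) arrays lay between 6.22 and 8.81, and their differences from naïve cells, 1.49 to 2.14, did not pass. The LPS call of Timp1 was lost without naïve replicate 1 or 2 or either re-stimulated array (0.103 to 0.329), and without naïve replicate 3, the lowest array, the rise was 4.37 (adjusted p = 0.00121). The call was also lost on values rebuilt from the scanner intensities (5.33, adjusted p = 0.0515) and with all 27 arrays, where re-stimulated LPS replicate 3 read 5.34 (3.26, 0.509). With normexp correction the rise was 3.89 (0.00262).

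Mmp13 encodes the main interstitial collagenase of rodents. Its probe lies at chr9:7282762-7282821 (mm9, plus strand). Naïve cells read 10.59, 9.98 and 6.03. Acute cells read 13.16, 12.49 and 11.94 with LPS, 13.09, 13.49 and 10.72 with CpG, 13.44 and 7.78 with Pam3CSK4, and 12.73, 12.66 and 10.13 with Poly(I:C). Replicate 3 was the lowest array of each group. No change of Mmp13 was called by the unblocked test, in which the acute differences were 3.66 with LPS (adjusted p = 0.064), 3.57 with CpG (0.19), 1.74 with Pam3CSK4 (0.798) and 2.97 with Poly(I:C) (0.278). Without naïve replicate 3, the lowest array, they were 2.24 with LPS (0.00657, a call), 2.14 with CpG (0.176), 0.32 with Pam3CSK4 (0.94) and 1.55 with Poly(I:C) (0.313). The LPS rise was also called without naïve replicate 1 (4.53, 0.0486). With Pam3CSK4 the difference was -1.09 without acute replicate 1 and 4.57 without acute replicate 3.

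On each slide that held both states, Mmp13 was higher in acute than in naïve cells. For CpG the differences on slides 1, 2 and 3 were 2.50, 3.51 and 4.69, and for Poly(I:C) 2.14, 2.68 and 4.10. Re-stimulated arrays read 11.37 and 11.11 with LPS, 9.58, 10.74 and 8.60 with CpG, 9.27, 9.29 and 7.46 with Pam3CSK4, and 9.51, 9.75 and 8.44 with Poly(I:C). With the replicate block the falls from acute to re-stimulated cells passed for CpG (2.79, adjusted p = 0.0295) and Poly(I:C) (2.60, 0.0407) but not for Pam3CSK4 (-2.25, 0.461). The acute differences did not pass with it for CpG (0.0575), Poly(I:C) (0.0578) or Pam3CSK4 (0.439). Against naïve cells the re-stimulated differences were 0.78 with CpG, -0.20 with Pam3CSK4 and 0.37 with Poly(I:C). With LPS both re-stimulated arrays lay above all naïve ones, by a mean of 2.37 (adjusted p = 0.367), which was 0.95 without naïve replicate 3 (0.0573).

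Mmp8 encodes neutrophil collagenase. Its probe lies at chr9:7568238-7568297 (mm9, plus strand). Naïve cells read 11.57, 11.47 and 9.06, and acute LPS cells 11.57, 10.83 and 8.89. Acute CpG and acute Poly(I:C) means differed from naïve cells by 0.06 each, well within the spread. Re-stimulated cells read 11.69 and 12.15 with LPS, 12.10, 12.45 and 9.25 with CpG, 13.14, 12.28 and 9.86 with Pam3CSK4, and 9.93, 10.42 and 8.42 with Poly(I:C). The Poly(I:C) arrays were the lowest of the re-stimulated groups replicate by replicate, but no change of Mmp8 passed the test in any of the 11 comparisons tested.

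Replicate 3 was the lowest Mmp8 array in 8 of 8 groups, by a median of 2.50 (log2) below the mean of the others. Most transcripts of neutrophils moved with it, though not all. Ltf, a protein of neutrophil granules, read 8.92 to 13.05 on the 15 arrays of replicates 1 and 2 outside acute LPS, and 2.09 to 4.41, well above background on 0 of 7, on replicate 3. S100a9, Ngp and Ctsg were lowest on replicate 3 in 8 of 8 groups, with median differences of -9.11, -6.68 and -3.98 from the other arrays. The differences were smallest within acute LPS, on its own slides (-0.41, -0.41 and -0.13). There S100a9 and Ngp were well above background on 0 of 3 arrays, so their order among these arrays was not measured. Csf3r and Elane differed little there (medians -0.125 and -0.30), and S100a8 was lowest in 5 groups and highest in 3. Ccr7, a dendritic cell marker, was also lowest on replicate 3 in 7 of 8 groups (median -5.06). Of the 12 neutrophil markers 8 to 12 were well above background on the 15 arrays and 5 to 9 on the 7, with summed linear intensities of 81460 to 311000 and 29480 to 84370. The brightest probe of the list was that of S100a9 on 13 of the 25 arrays and that of Csf3r on 9, which does not order the transcripts. The 3 acute LPS arrays also lacked Ltf, at 2.51 to 3.29 and 0 of 3 above background, and Ngp, another granule transcript, at 2.09 to 2.81. Elane, at 11.48 to 12.10, and Csf3r, at 14.49 to 15.95, were well above background on all 3. Of the 12 neutrophil markers 5 to 6 were well above background on these arrays. On the same 3 arrays Mmp8 read 11.57, 10.83 and 8.89, beside 11.57, 11.47 and 9.06 on the naïve arrays. The part of neutrophils or other cells in the levels of Mmp8 was not tested.

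**Figure D3:**
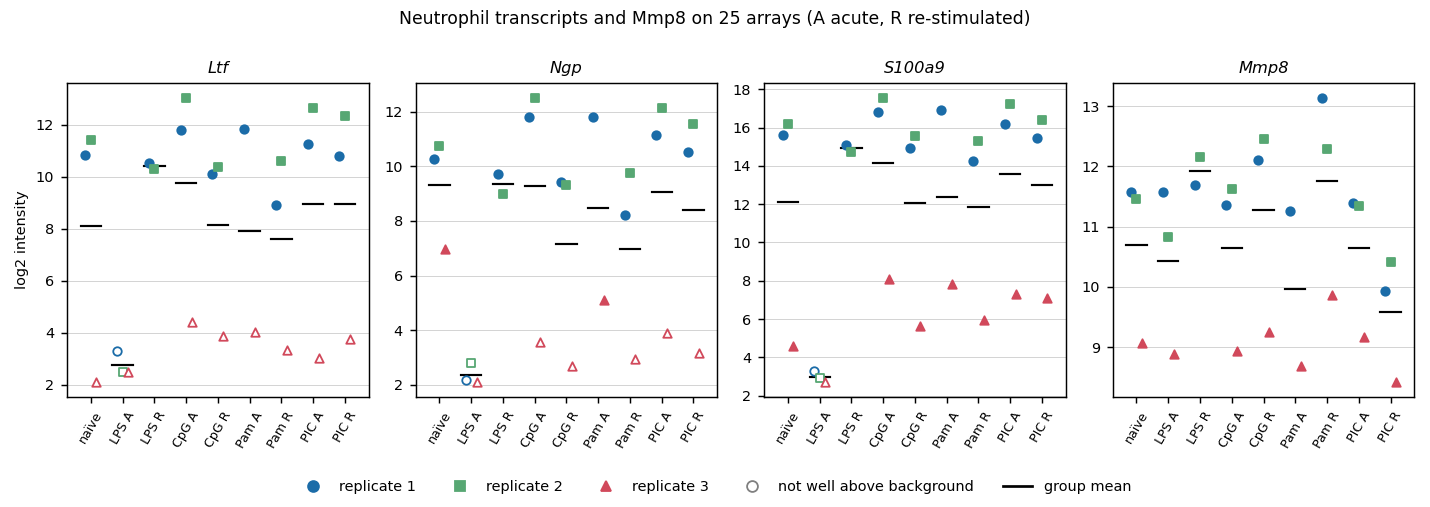
Log2 intensity (vertical axis) of the neutrophil transcripts Ltf, Ngp and S100a9 and of Mmp8 on the 25 arrays, by group (horizontal axis), with replicates by colour and shape, hollow points for probes not well above background and bars for group means. Replicate 3 and all acute LPS arrays are low for the 3 markers, while the acute LPS arrays of Mmp8, at 8.89 to 11.57, overlap the naïve ones, at 9.06 to 11.57.

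Mmp9 encodes gelatinase B, which cuts denatured collagen and collagen of basement membranes. Its probe lies at chr2:164780620-164780679 (mm9, plus strand). Naïve cells read 7.29, 7.83 and 11.46, so that replicate 3 lay far above the other arrays. Acute LPS cells read 10.91, 10.26 and 10.12, and re-stimulated LPS cells 8.09 and 7.34, a difference of -2.72 without overlap. With Pam3CSK4 it read 9.91 and 11.33 in acute and 12.11, 10.94 and 11.75 in re-stimulated cells, which overlapped (difference 0.98, adjusted p = 0.488). CpG arrays read 8.54, 9.48 and 10.74 when acute and 10.24, 10.38 and 10.30 when re-stimulated.

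With Poly(I:C), Mmp9 read 7.70, 8.40 and 10.95 in acute and 6.98, 6.68 and 8.98 in re-stimulated cells, the lowest group mean of the 9 (7.54 ± 1.25, SD, n = 3). No change of Mmp9 was called. The difference nearest to a call was that of re-stimulated Pam3CSK4 against naïve cells (2.74, 95% interval 0.05 to 5.43, adjusted p = 0.191). Without naïve replicate 3 this difference was 4.04 (limma adjusted p = 0.00543). Acute LPS then gave 2.87 (0.00118) and re-stimulated CpG 2.75 (0.0013) against naïve cells, each a call. Replicate 3 was the highest Mmp9 array in 5 of 8 groups, by a median of 1.57 above the mean of the others over the 8. Most neutrophil transcripts were low on replicate 3, with Ltf at 2.09 on naïve replicate 3, while Csf3r and Elane were not, and their part in the levels of Mmp9 was not tested.

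Left out of every group, replicate 3 removed much of the spread, and more of the 8 genes were called, as were more of all probes. Acute LPS then changed 5 genes, Mmp9, Mmp12, Mmp13, Mmp14 and Timp2, against 45.3% of all probes. Acute CpG changed 5, Mmp13, Mmp14, Adamts4, Timp1 and Timp2 (17.7%), acute Pam3CSK4 4, Mmp9, Mmp13, Mmp14 and Timp1 (14.9%), and acute Poly(I:C) 4, Mmp13, Mmp14, Adamts4 and Timp1 (25.8%). Acute Pam3CSK4 is then a single array, which is assumed to vary like the naïve ones. In these fits Mmp13 was 2.41 to 3.15 higher in acute than in naïve cells with each ligand, and Mmp14 2.77 to 3.96.

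Between acute and re-stimulated cells the fits without replicate 3 called the same 3 genes for CpG (7.22% of all probes) and Pam3CSK4 (3.89%), namely Mmp12, Mmp13 and Adamts4. For Pam3CSK4 these fits set 2 re-stimulated arrays against 1 acute array, assumed to vary like the others, and on slide 3, which they leave out, the differences were -1.62 for Mmp12, -0.32 for Mmp13 and 0.35 for Adamts4. For Poly(I:C) they called 6, Mmp8, Mmp9, Mmp12, Mmp13, Adamts4 and Timp2 (25.7%), and all of these calls were falls. The difference of Adamts4 was -4.87 with CpG and -5.25 with Pam3CSK4. With Poly(I:C) the re-stimulated arrays left in these fits were not well above background for Adamts4, so the size of its fall was not measured. Timp2 lost its CpG call (adjusted p = 0.0578).

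Against naïve cells, re-stimulated cells without replicate 3 differed in 4 genes with LPS, Mmp12, Mmp14, Timp1 and Timp2 (25% of all probes). With CpG there were 6, Mmp9, Mmp12, Mmp14, Adamts4, Timp1 and Timp2 (25.7%), and with Poly(I:C) 4, Mmp8, Mmp12, Mmp14 and Timp2 (29.5%). With Pam3CSK4 all but Mmp8 were called, 7 genes (24.4%). Mmp12, Mmp14 and Timp2 were called with each of the 4 ligands. Mmp9 was 2.76 higher than in naïve cells with CpG and 3.97 with Pam3CSK4, and its LPS and Poly(I:C) differences were not called.

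The change on re-stimulation was compared between CpG, Pam3CSK4 and Poly(I:C) in 1 limma fit of the 9 groups, with 3 pairs of ligands and 8 genes. No gene of the 8 was called in any pair, with adjusted p of 0.511 and above and 0 unadjusted p under 0.05 (0.907%, 11.1% and 12% of all probes in the 3 pairs). After adjustment, 0.00378% of all probes differed between CpG and Pam3CSK4, 0.0396% between CpG and Poly(I:C) and 0.141% between Pam3CSK4 and Poly(I:C). The widest differences were those of Mmp8 (2.84 ± 1.64, SE) and Mmp9 (2.46 ± 1.40), both higher with Pam3CSK4 than with Poly(I:C). Standard errors of this size leave differences of several fold undetectable in these 2 genes. Without replicate 3, Mmp8 and Mmp9 were called in the pairs of CpG and Poly(I:C) (1.98 and 2.53) and of Pam3CSK4 and Poly(I:C) (2.65 and 2.84), where 15.4% and 14.1% of all probes were called, and no gene of the 8 between CpG and Pam3CSK4 (0.0528%). Acute Pam3CSK4 is a single array in that fit. With the replicate block Mmp8 was called between Pam3CSK4 and Poly(I:C) (2.44, adjusted p = 0.0184), against 0.382% of all probes, and no gene between CpG and Poly(I:C) (0.151%) or CpG and Pam3CSK4 (0.00378%).

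Across the 9 group means, Timp2 and Mmp12 ran in parallel (Pearson r = 0.97) and Timp2 and Mmp14 in opposition (r = -0.786), which is a description over 9 means that share arrays and normalization. Among 20570 genes, those most like Timp2 were Gas6 (r = 0.993), a ligand of TAM receptors, Daglb (0.993) and Arhgap18 (0.99). Those most like Mmp12 were Trf, which encodes transferrin (0.991), Lgmn, the lysosomal protease legumain (0.991), and Mgst3 (0.99). Mmp14 was most like Serpinb2 (0.986), Aldoart2 (0.982) and Tarm1 (0.98), and Adamts4 was most like Slc25a25 (0.978) and Prrc2a (0.971). For Mmp13 the likeness was highest for Lass6, Gm8801 and Arhgap31 (0.952 to 0.959), and for Timp1 for Ddx23, Fyb and Bdp1 (0.95 to 0.961). Mmp9 was most like Flna (0.966) and a pair of unnamed transcripts, and Mmp8 was most like Pigk (0.935), H19 (0.934) and Pdia4 (0.919).

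The wider pathway was read in 84 further genes of matrix breakdown, of which 39 to 49 passed the filter in a comparison. Acute LPS raised 12 and lowered 5 of 49, CpG raised 6 and lowered 1 of 43, Poly(I:C) raised 2 and lowered 1 of 44, and Pam3CSK4 changed 0 of 41. Between acute and re-stimulated cells 12 were higher and 11 lower of 46 with LPS, 1 of 40 was lower with CpG, 1 of 45 with Poly(I:C), and 0 of 39 changed with Pam3CSK4. Against naïve cells, re-stimulated cells had 5 higher and 3 lower of 43 with LPS, 7 and 4 of 42 with CpG, 4 and 3 of 42 with Pam3CSK4, and 4 and 3 of 44 with Poly(I:C). These shares stand beside the shares of all probes given above. With acute LPS the calls were 4 of 10 other MMPs, all higher, 2 higher and 1 lower of 6 other ADAMTS proteases, 1 lower of 8 ADAM sheddases, 4 higher and 3 lower of 9 genes of the plasminogen system, 1 higher of 4 partners of the proteases and 1 higher of 10 matrix proteins.

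**Figure D4:**
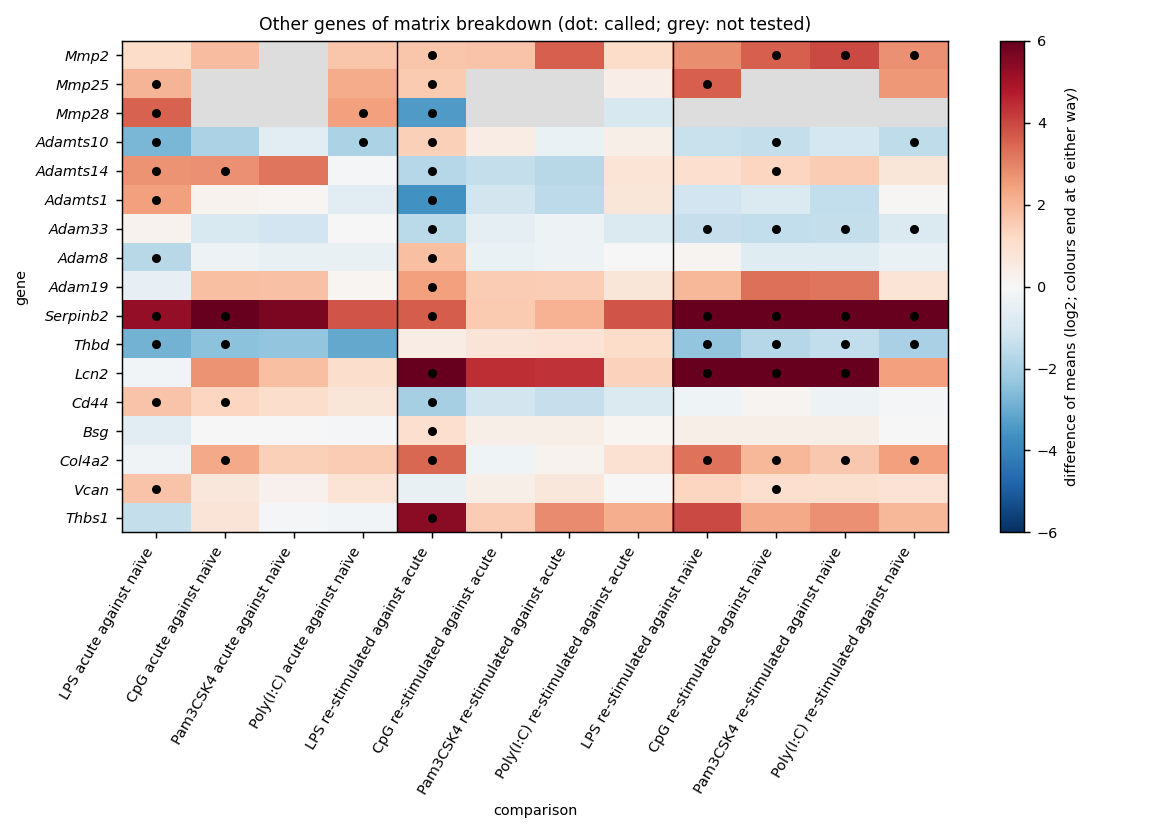
Difference of group means (log2, colour, ending at 6 either way) of 17 pathway genes with the most calls of their lists (rows) in the 12 comparisons (columns), with dots for calls and grey for comparisons in which a gene was not tested. Serpinb2 and Col4a2 are higher and Thbd and Adam33 lower in all or most comparisons of re-stimulated with naïve cells.

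The plasminogen system holds proteases that activate MMPs, and their inhibitors. Serpinb2, an inhibitor of urokinase, was higher than in naïve cells in 6 comparisons, by 5.25 with acute LPS, 6.56 with acute CpG and 7.53 to 8.86 in the 4 re-stimulated groups. Thbd, which encodes thrombomodulin, fell by 2.82 with acute LPS and 2.48 with acute CpG, and was lower than in naïve cells with each of the 4 ligands on re-stimulation (-1.50 to -2.38).

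Of the other MMPs, Mmp2, the gelatinase that MMP14 activates, was not well above background on any naïve array. It was at least 11.3-fold higher on re-stimulation with CpG (limma adjusted p = 0.0149), 14.8-fold with Pam3CSK4 (0.031) and 6.38-fold with Poly(I:C) (0.0316), bounds set against the dimmest signal well above background on each naïve array, or the probe's own where higher. Mmp25, a membrane-anchored MMP of leukocytes, likewise dim in naïve cells, was at least 4.08-fold higher with acute LPS and 11.9-fold higher on LPS re-stimulation. Mmp28 rose by 3.53 with acute LPS and 2.44 with acute Poly(I:C), and was at least 8.6-fold lower in re-stimulated LPS cells, where it was not well above background, than in acute ones. Of the inhibitors other than the 2 TIMPs, Reck and Timp4 passed the filter in at least 1 comparison, and neither was called.

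Among the ADAMTS proteases, Adamts14, which trims procollagen, rose with acute LPS (2.70) and acute CpG (2.73), and Adamts1, a versican-cutting relative of Adamts4, rose with acute LPS (2.47). Both were lower in re-stimulated than in acute LPS cells, by 1.71 and 3.64. Adamts10 was lower than in naïve cells in 4 comparisons, by 2.73 with acute LPS. Of the membrane ADAMs, Adam33 was lower in the 4 re-stimulated groups than in naïve cells (-0.85 to -1.49). Adam8 and Adam19 were called between acute and re-stimulated LPS cells (1.81 and 2.44), and Adam8 was 1.67 lower with acute LPS.

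Of the partners of the proteases, Lcn2, whose product binds MMP9, was 6.14 to 7.12 higher than in naïve cells on re-stimulation with LPS, CpG and Pam3CSK4. Cd44, which holds MMP9 at the cell surface, rose with acute LPS (1.73) and acute CpG (1.28) and was 1.99 lower in re-stimulated than in acute LPS cells. Bsg, an inducer of MMPs, was 1.02 higher in re-stimulated than in acute LPS cells. Of the matrix proteins, Col4a2, a chain of basement membrane collagen, was higher in the 4 re-stimulated groups than in naïve cells (1.62 to 3.25), and Vcan, which encodes versican, rose with acute LPS (1.71). Thbs1 was 5.39 higher in re-stimulated than in acute LPS cells, a comparison across slides.

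The labelled cell type was checked on its markers. All 8 macrophage markers with a probe were well above background on all 25 arrays, with Csf1r, the CSF1 receptor, at a mean of 17.84. Of 10 fibroblast markers, 2 were above background on all arrays and Pdgfra on none, of 5 dendritic cell markers 1 was and Xcr1 on none, and of 6 B and T cell markers 2 were. Some markers moved with the groups in which Mmp12, Mmp14, Timp2 and Adamts4 moved. With acute LPS, 1 of 8 macrophage markers was higher, Cd14 (0.71), and 3 were lower, Cd68 (-0.89) among them. Of all tested probes 13.2% were called higher and 13.2% lower in that comparison. Csf1r read 16.96 to 17.29 on the acute LPS arrays and 17.54 or more on all others. Zbtb46 (6.23), a dendritic cell marker, was higher with acute LPS. So was Pdgfrb, a fibroblast marker not well above background on any naïve array (at least 15.6-fold). They were the only calls among 4 dendritic cell and 5 fibroblast markers tested, whose median changes were -0.67 and 0.60. With acute CpG, Cd14 (1.62), Zbtb46 (3.47) and Pdgfrb (at least 27.4-fold) were higher, and with acute Poly(I:C) Zbtb46 (3.46). Zbtb46 was again the only dendritic cell marker called, of 4 tested, where 5.72% and 6.03% of all probes were called. Median changes of the 4 were 0.76 and 0.53. On re-stimulation, the integrin gene Itgax was 2.17 to 3.22 lower than in naïve cells with the 4 ligands, Zbtb46, of the same dendritic cell list, was 2.24 and 2.81 higher with CpG and Poly(I:C), and Ccr7 was not called. The macrophage marker Cd14 was 1.07 to 1.30 higher, and Mertk was lower with CpG (-2.07) and Pam3CSK4 (-2.74) and Cd68 with CpG (-1.31). Pdgfrb was at least 21.3-fold, 15.1-fold and 9.1-fold higher with LPS, CpG and Pam3CSK4. Lum, also a fibroblast marker not well above background on any naïve array, was at least 16.8-fold higher with CpG (limma adjusted p = 0.00689). Dcn was higher with LPS (4.23) and Poly(I:C) (3.02), and Acta2 with CpG (1.33) and Pam3CSK4 (1.41). Of the 12 neutrophil markers 3 were lower and 0 higher with acute LPS, on its own slides, where 26.5% of all probes were called. These were S100a8 (-3.92), Ngp (at least 118-fold) and Cxcr2 (at least 3.35-fold). On re-stimulation with CpG, where 13.1% of all probes were called, 1 of the 12 was lower than in naïve cells.

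Markers also moved between acute and re-stimulated LPS cells, the comparison in which Adamts4, Timp1, Mmp9, Mmp28, Adam8 and Thbs1 differed. Of 10 neutrophil markers tested 6 were higher in re-stimulated cells and 0 lower, where 34.2% of all probes were called. The re-stimulated group holds replicates 1 and 2 only. S100a9 read 2.69 to 3.29 on the acute LPS arrays, well above background on 0 of 3, and 15.10 and 14.75 on the re-stimulated ones. Ltf, Ngp and Ly6g were at least 200-fold, 121-fold and 506-fold higher, and S100a8 (5.11) and Camp (4.61), above background in both states, were higher as well. Elane, Mpo, Csf3r and Ctsg were not called. Of 4 dendritic cell markers, Ccr7 (6.84) and Flt3 (2.00) were higher and Zbtb46 (-4.56) and Itgax (-2.13) lower. Of the macrophage markers, Csf1r (1.07) and Fcgr1 (1.29) were higher and Itgam (-1.03) and Mertk (-3.14) lower, of the fibroblast markers Dcn (3.63) and Acta2 (1.32) were higher, and Cd79a, a B cell marker, was lower (-0.85). With the other ligands few markers changed between these states: Itgax was lower with CpG (-2.11) and Poly(I:C) (-2.33), Mertk was lower with Poly(I:C) (-1.54), and Lum, a fibroblast marker, was at least 12-fold higher with CpG. The part of such cells in the changes of the proteases was not tested.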

How the data were processed

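Total RNA of each culture was labelled with Cy3 and hybridised to a single-colour Agilent mouse 8 x 60K array of 62976 spots. The authors deposited log2 values of 25 arrays, made in limma by RMA background correction and quantile normalization, and these are the main values here. They also deposited each array's spot intensity and background as scanned, without normalization, from which detection (the scanner's well-above-background flag) and the alternatives were taken. Rebuilding the values from the median signal minus background differed from the deposited ones by a median of 0.0355. Probe positions are those of the array files (mm9), and exons and UTRs were not analysed here.

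A gene with several probes was read by the probe with the highest mean. Each comparison of 2 groups was fitted with limma 3.58.1 (R 4.3.3; figures with matplotlib 3.10.9) on the probes that 1 of its groups showed well above background in 2 or more arrays, with Benjamini-Hochberg adjustment over all of them, and every adjusted p is from limma. Probes with an adjusted p under 0.05 and a difference of 1.5-fold or more were called. Differences between ligands were contrasts in a fit of all 9 groups. The fits were tested on simulated data. Arrays carry no count of molecules, and their number, 2 or 3 per group, limits the precision.

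Same-numbered arrays deviated together over 30814 probes, with correlations of 0.104 to 0.437 in the CpG, Poly(I:C) and re-stimulated against naïve Pam3CSK4 comparisons, each with 3 pairs. These numbers were therefore taken as pairing the cultures, and the blocked value stands beside a call that it changes. The slide equals the replicate number on these arrays, so a shared slide and a shared culture cannot be told apart. The members and the gene lists were chosen with earlier results of these data known. All 8 genes are named. Of each other list, up to 3 genes with the most calls are named, ties going to the largest change, and for likeness the 3 genes whose group means correlate best, except that a few are not reported here. Some further cell type markers that were called are named, though not all, and were chosen after their values were seen. Alternatives were other background corrections, scalings, filters, fits, the replicate block and each array left out. Leaving out replicate 3 throughout was chosen after seeing the data.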

Additional observations from a re-analysis of the deposited data

How the results depend on the processing

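Each of the 19 calls of a member kept its direction under the alternatives in which it was recomputed, but only 2, Mmp12 with Poly(I:C) and Timp2 with CpG, both in re-stimulated against naïve cells, held whichever array was left out, while the 16 calls that use naïve cells all held without naïve replicate 3. Over the 4 ligands, acute stimulation gave 3 calls of members, and 6 with normexp correction, 11 with median scaling, 5 with the 75th percentile, 10 in 1 fit of 9 groups, 13 with slides as random blocks and 18 without replicate 3 in every group. With 1 array left out there were 1 to 10 calls: 1 without naïve replicate 1 or 2 or acute LPS replicate 1 or 2, and 10 without naïve replicate 3. Re-stimulated against acute cells gave 3 calls, and 5 with normexp, 1 without a filter on dim probes, 7 in 1 fit, 7 with slides as random blocks, 6 with the replicate block, 12 without replicate 3 and 1 to 6 with 1 array left out (1 without Poly(I:C) replicate 1 or 2 of either state, 6 without acute CpG replicate 3). Re-stimulated against naïve cells gave 13 calls, and 8 without a filter, 21 without replicate 3 and 3 to 17 with 1 array left out (4, 3 and 17 without naïve replicates 1, 2 and 3). Median scaling also gave 13 there, but shared only 6 of them, having lost all calls of Timp2 and those of Mmp12 with LPS, CpG and Pam3CSK4. The replicate block gave 4 and 9 calls in the comparisons with naïve cells. For LPS, whose same-numbered arrays did not deviate together (correlations 0.01 to 0.095), the block called Mmp12, Mmp13 and Mmp14 and not Timp2 (adjusted p = 0.0577) for acute cells, and added Mmp14 on re-stimulation (0.0163). Differences between ligands gave 0 calls, 1 with the replicate block, 4 without replicate 3 and 0 to 1 with 1 array left out. Without a filter on dim probes, adjusted p rose past 0.05 for Timp1 (0.0935) and Mmp12 (0.101) in re-stimulated against naïve LPS cells, Adamts4 with CpG there (0.0528), Mmp14 with acute LPS (0.0655) and re-stimulated Pam3CSK4 (0.079) and Poly(I:C) (0.0719), and Timp2 in re-stimulated against acute CpG (0.0924) and Poly(I:C) cells (0.0952). Mmp12 with LPS was not called with all 27 arrays (-3.02, 0.167), nor Timp2 in re-stimulated against acute Poly(I:C) cells with the 75th percentile (0.06) or the median of its probes (0.0618). Over the whole array, the counts of called probes moved as well: 7918 (3065 to 12369 over the alternatives other than leaving out 1 array), 1598 (412 to 5476), 0 (0 to 3713) and 1713 (716 to 6744) with acute LPS, CpG, Pam3CSK4 and Poly(I:C), then 9772 (1793 to 11013), 916 (147 to 2889), 0 (0 to 1545) and 1338 (228 to 6566) for re-stimulated against acute cells, and 1581 (116 to 6461), 3691 (1646 to 6936), 1497 (6 to 6240) and 2565 (1241 to 7698) for re-stimulated against naïve cells. With 1 array left out they ranged from 4038 to 10963, 108 to 2881, 0 to 584 and 183 to 2909, then from 4068 to 11013, 43 to 2037, 0 to 0 and 0 to 3267, and from 0 to 6461, 704 to 7030, 18 to 4205 and 360 to 4282, in the same order.

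No value that changed sign was called. Under median scaling the sign changed for Mmp8 with acute LPS (0.0862), CpG (0.559) and Poly(I:C) (0.387), Mmp12 with acute CpG (0.119) and Poly(I:C) (0.0493), Timp2 with acute CpG (0.0124), Timp1 in re-stimulated against acute Pam3CSK4 cells (0.139) and Mmp13 in re-stimulated against naïve Pam3CSK4 cells (0.0969). With the 75th percentile it changed for Mmp8 with acute CpG (0.0844) and for Adamts4 in re-stimulated against naïve LPS (-0.316) and Poly(I:C) cells (-0.832). With all 27 arrays it changed for Mmp9 (-0.61) and Timp1 (-0.10) with acute Pam3CSK4, Mmp14 (-0.401) and Timp1 (1.60) in re-stimulated against acute Pam3CSK4 cells, and Mmp8 in re-stimulated LPS cells against acute (-0.298) and naïve cells (-0.559). Without replicate 3 it changed for Timp1 in re-stimulated against acute Poly(I:C) cells (-0.213), and against naïve cells for Mmp9 with LPS (0.157, also with the replicate block) and Mmp13 with CpG (-0.123) and Poly(I:C) (-0.657). With 1 array left out, acute differences changed sign for Mmp8 with LPS (-1.09 to 0.504), CpG (-0.88 to 0.79), Pam3CSK4 (-2.02 to 0.556) and Poly(I:C) (-0.879 to 0.671), Mmp9 with CpG (-0.0584 to 2.03) and Poly(I:C) (-0.805 to 1.46), and Mmp12 (-0.964 to 0.022) and Mmp13 (-1.09 to 4.57) with Pam3CSK4. Against acute cells they changed for Mmp8 (-0.222 to 1.64) and Timp1 (-0.0893 to 0.904) with CpG, and Mmp13 (-4.77 to 0.892) and Timp1 (-1.18 to 0.873) with Pam3CSK4. Against naïve cells they changed for Mmp9 with LPS (-1.93 to 0.157), Mmp8 with CpG (-0.25 to 1.58), Mmp13 with CpG (-0.643 to 1.64), Pam3CSK4 (-1.62 to 0.667) and Poly(I:C) (-1.05 to 1.23), and Adamts4 with Poly(I:C) (-0.531 to 1.35). Median scaling moved the median change of all probes to between 0.08 and 0.81, and the share of higher calls from 54% to 93.4% for acute CpG, from 63% to 93.3% for acute Poly(I:C), from 49.9% to 71.1% for acute LPS, from 52.1% to 70.8% and 46.9% to 68.6% on CpG and Poly(I:C) re-stimulation against acute cells, and from 57.7% to 76.1%, 50.8% to 86.1%, 48.8% to 71.8% and 53.1% to 85.2% for LPS, CpG, Pam3CSK4 and Poly(I:C) re-stimulation against naïve cells. The causes of these differences were not tested.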

Other observations

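Rebuilt together with the other arrays, the 2 arrays without deposited values lay far from their groups for some of the 8 genes and near them for others. Re-stimulated LPS replicate 3, with 92.3% of probes well above background, read 9.59 for Adamts4, 5.34 for Timp1, 6.79 for Mmp13 and 6.73 for Mmp8, where the other 2 arrays read 4.84 to 5.22, 10.77 to 11.08, 11.16 to 11.41 and 11.72 to 12.17, but 12.45 for Mmp14 and 14.26 for Timp2, near the 11.98 to 12.09 and 13.60 to 14.00 of the others. Acute Pam3CSK4 replicate 2, with 99.9% of probes well above background and 22.6% of spots marked non-uniform, read 14.07 for Mmp14, 3.78 for Mmp9 and 2.23 for Timp1, where the other arrays read 10.67 to 11.24, 10.00 to 11.37 and 6.45 to 8.42. It read 15.53 for Timp2, near the others at 15.68 to 15.74, and 11.23 for Mmp13, between them.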
